A study of Mus musculus with 7 samples.

Results

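The genes described here encode the subunits of the proteasome and the factors that assemble it, read in RNA from mouse alveolar macrophages, phagocytes that live in the airspaces of the lung. They were taken from the deposited table as the protein-coding genes whose symbol starts with Psma to Psmg and a number, leaving out Psmb8 and Psmb9. The rule found 48 of 47643 listed genes, and 47 of the 48 reached the mean of 1 TPM needed for testing. The remaining gene, Psmb11, the thymus-specific core subunit, was listed at 0 in all 7 libraries. One of the 47, Psmc3ip, carries the name of a protein that binds Psmc3 and serves in meiotic recombination. It is not a proteasome subunit and is given apart.

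The libraries came from sorted cells positive for CD11c, F4/80 and SiglecF. In the Lyz2cre group (n = 3), floxed alleles of Siah1a and Siah2 were deleted by Cre expressed from Lyz2, the lysozyme M gene of myeloid cells. In the CD11ccre group (n = 1), the same floxed alleles were deleted by Cre under the control of CD11c, whose gene is Itgax. The remaining libraries were labelled wild type (WT, n = 3), and the labels do not say whether those animals carried a Cre. Siah1a and Siah2 are RING-type E3 ubiquitin ligases, which mark proteins for destruction by the proteasome, so the comparison asks what their loss does to alveolar macrophages. The labels do not tie replicates to different animals. The p-values then speak only of the variation within the 3 Lyz2cre and the 3 WT libraries, which may be technical. The single CD11ccre library adds no measure of its own variation.

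The proteasome degrades proteins tagged with ubiquitin. Its barrel-shaped core is built of outer alpha rings, which gate the entrance, and inner beta rings, which hold the proteolytic sites. The 19S regulatory particle caps the core. Its base unfolds substrates with a ring of ATPases and its lid removes the ubiquitin. Interferon replaces the catalytic beta subunits with inducible ones, and macrophages use both forms to make peptides for antigen presentation. Most subunit genes are known to be driven together by the transcription factor NRF1, encoded by Nfe2l1, when proteasome activity is limiting.

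Values were TPM, a measure of transcript share in which reads are divided by gene length and each library is scaled to the same sum. They can therefore be compared between genes, but they keep no record of depth, so depth is unknown and no counting interval is given. Siah1a was listed at 0, 0 and 0.05 TPM in Lyz2cre, 0 in CD11ccre and 16.6, 6.72 and 13.4 TPM in WT. Siah2 was at 1.45 to 1.95 TPM in Lyz2cre, 1.21 in CD11ccre and 12.7 to 17.3 TPM in WT. All 12 alveolar macrophage markers had a mean of at least 1 TPM, but several moved with genotype. Siglecf, used in the sort, ran from 65.5 to 107 TPM in Lyz2cre, 53.9 in CD11ccre and 211 to 257 TPM in WT, and Ear2 was lower in the same way. Marco ran from 1375 to 1456 TPM in Lyz2cre, 1420.1 in CD11ccre and 223 to 594 TPM in WT, and Car4 and Chil3 were higher in the same way. All 4 eosinophil markers were at 0. Summed airway markers ran from 146 to 373 TPM in Lyz2cre, 314 in CD11ccre and 382 to 552 TPM in WT. These airway markers did not move together. Tppp3 ran from 55.93 to 113.4 TPM in Lyz2cre, 109.7 in CD11ccre and 200.4 to 386.2 TPM in WT. Scgb1a1 overlapped, at 84.98 to 254.05 TPM in Lyz2cre, 194.1 in CD11ccre and 105.2 to 185.6 TPM in WT. Summed alveolar type 2 markers overlapped, at 77.69 to 96.51 TPM in Lyz2cre, 71.35 in CD11ccre and 87.81 to 94.02 TPM in WT. Sftpb and Sftpa1, from that list, were higher in Lyz2cre without overlap and Napsa was lower. Summed monocyte markers ran from 0.92 to 1.38 TPM in Lyz2cre, 0.67 in CD11ccre and 3.01 to 9.99 TPM in WT. Summed neutrophil markers ran from 125 to 168 TPM in Lyz2cre, 151 in CD11ccre and 54.8 to 107 TPM in WT, with Ly6g, which defines neutrophils, at 0 throughout. These neutrophil markers did not move together. S100a8 ran from 80.9 to 127 TPM in Lyz2cre, 92.1 in CD11ccre and 15.6 to 32.9 TPM in WT, while S100a9 ran from 1.16 to 6.90 TPM in Lyz2cre, 1.62 in CD11ccre and 10.7 to 37.9 TPM in WT. The part of these markers in the results below was not tested. Ftl1, Fth1 and Chil3 together took 14.4% to 16.3% of the TPM in Lyz2cre, 14.0% in CD11ccre and 4.90% to 5.29% in WT. Mitochondrially encoded genes took 2.67% to 4.61% in Lyz2cre, 4.23% in CD11ccre and 7.54% to 9.25% in WT. The part of this shift in the results was not tested. Lyz2 stood at 46.6 to 61.9 TPM in Lyz2cre, 50676 TPM in CD11ccre and 72.6 to 86.3 TPM in WT. WT was thus near Lyz2cre and far below CD11ccre at this gene, so in CD11ccre against WT the loss of Siah1a and Siah2 and a difference at Lyz2 cannot be told apart. Genes that take more of a fixed sum lower the values of all others. The median log2 fold change over all 11397 tested genes was -0.16 for Lyz2cre over WT and -0.29 for CD11ccre over WT. Changes of many of the proteasome genes are therefore also given with median-of-ratios scaling, which sets the typical gene to no change. In such bulk samples, fewer cells of a type and less RNA per cell cannot be told apart.

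Proteasome transcripts were abundant in every library. Summed over the 48 genes they reached 5654, 5819 and 5395 TPM in Lyz2cre, 5304 TPM in CD11ccre and 6327, 6100 and 5397 TPM in WT. The means were 5623 ± 214 TPM in Lyz2cre and 5941 ± 485 TPM in WT (SD, n = 3 each), so Lyz2cre stood at 94.6% of WT and within the WT spread. With median-of-ratios scaling the same sum stood at 108% of WT. The most abundant gene was Psmb4, a structural beta subunit, with a mean of 359 TPM over all libraries. Psme2, a subunit of an activator that opens the core, followed at 319.9 TPM, and Psme1, its partner, at 259 TPM. The least abundant tested members were Psma8, the testis form of an alpha subunit, at 1.93 TPM and Psmc3ip at 3.11 TPM.

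**Figure D1:**
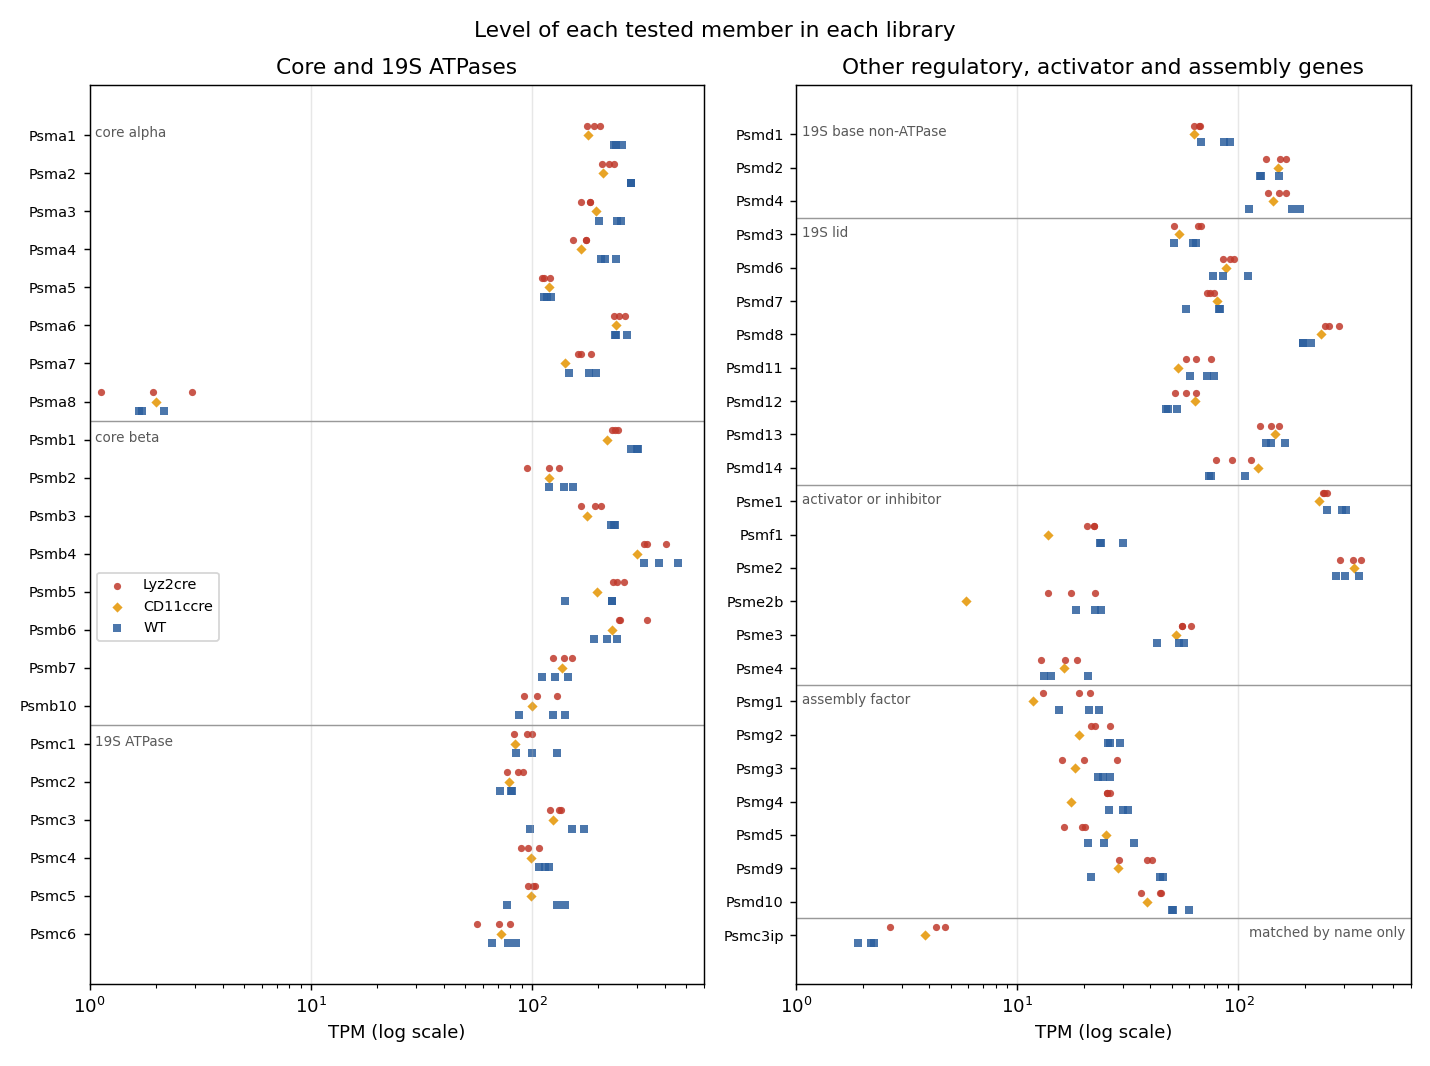
TPM of the 47 tested members in each library on a log axis, grouped by their role in the proteasome. Each point is 1 library, with red circles for Lyz2cre (n = 3), an orange diamond for CD11ccre (n = 1) and blue squares for WT (n = 3). Most core subunits sit at higher TPM than the assembly factors, and in most rows the colours lie close together.

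None of the 47 tested members was called in Lyz2cre with TPM as deposited, which does not show that none changed. The smallest Benjamini-Hochberg adjusted p over all genes from limma, a linear model with a moderated test, was 0.0723, for Psmd8. By the same test 6.76% of all tested genes were called, 2.17% higher and 4.6% lower. At an unadjusted p under 0.05, 2 members were higher, Psmd8 and Psmc3ip, and 7 were lower, Psma1, Psma2, Psma3, Psma4, Psmb1, Psmb3 and Psmd10. These are 4.26% and 14.9% of the members, against 5.96% and 18.7% of all genes, so neither share is above the background. The fold changes of the members were small, with 46 of 47 within 0.5 of 0 on the log2 scale (97.9%, against 73% of all tested genes). For 46 of 47 the whole 95% interval of the log2 fold change lay within 1 of 0, as it did for 63.2% of all genes. The members are more abundant than the typical gene, and their standard errors were smaller (median 0.15, against 0.22 over all genes).

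The median log2 fold change of the members was -0.09, against -0.16 over all genes, with 17 members above 0 and 30 below. With median-of-ratios scaling the balance turned, with 31 above 0, 16 below and a median of 0.09. It also moved with single libraries. WT replicate 3 was the lowest of the WT libraries for 30 of 47 members (63.8%, against 35.4% of all genes). Without that library the median of the members was -0.18, against -0.17 over all genes, with 12 members above 0 and 35 below, and still none was called. Without WT replicate 1 the median was -0.006, with 22 above 0 and 25 below, and without Lyz2cre replicate 3 it was -0.05. Lyz2cre replicate 3 was likewise the lowest of its group for 26 of 47 members (55.3%, against 41.2% of all genes).

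**Figure D2:**
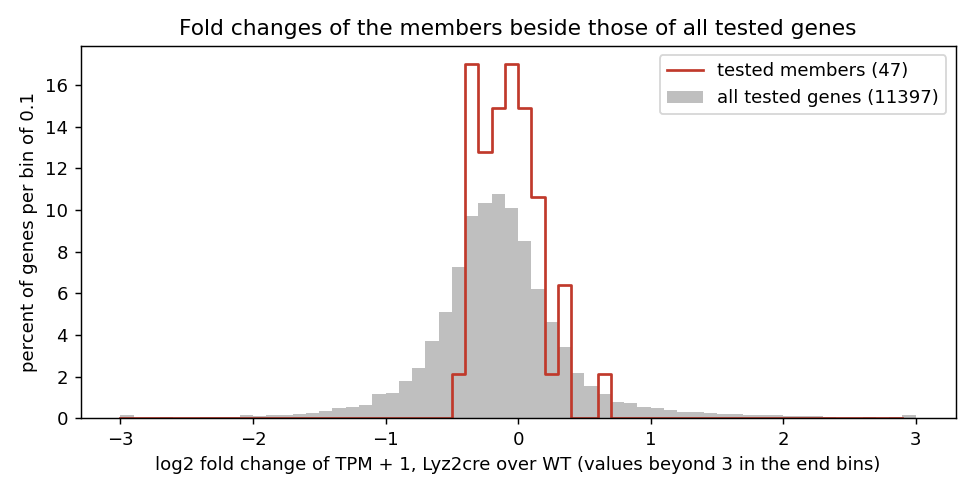
Percent of genes in bins of 0.1 log2 unit of the Lyz2cre over WT fold change, with all 11397 tested genes as grey bars and the 47 tested members as a red line. Both distributions lie mostly below 0, and the members lack the long tails of all genes, with 46 of 47 within 0.5 of 0.

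Between the 3 Lyz2cre and the 3 WT libraries, 4 members did not overlap and were higher, Psmd8, Psmb5, Psmb6 and Psmc3ip (8.51% of members, against 7.45% of all genes). Another 10 did not overlap and were lower, Psma1 to Psma4, Psmb1, Psmb3, Psmd1, Psmd5, Psmd10 and Psmf1 (21.3%, against 23.3% of all genes). With TPM as deposited both shares are near those of all genes. With median-of-ratios scaling 11 members were higher without overlap (23.4%, against 13.9% of all genes) and 5 were lower (10.6%, against 12.4% of all genes). The 11 were Psma5, Psma6, Psmb5, Psmb6, Psmb7, Psmc2, Psmc3ip, Psmd2, Psmd8, Psmd12 and Psme3. The 5 were Psma1, Psma2, Psma4, Psmb3 and Psmd10. Without WT replicate 3, 5 members were higher without overlap (10.6%, against 10.5% of all genes) and 18 were lower (38.3%, against 32.6% of all genes).

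**Figure D3:**
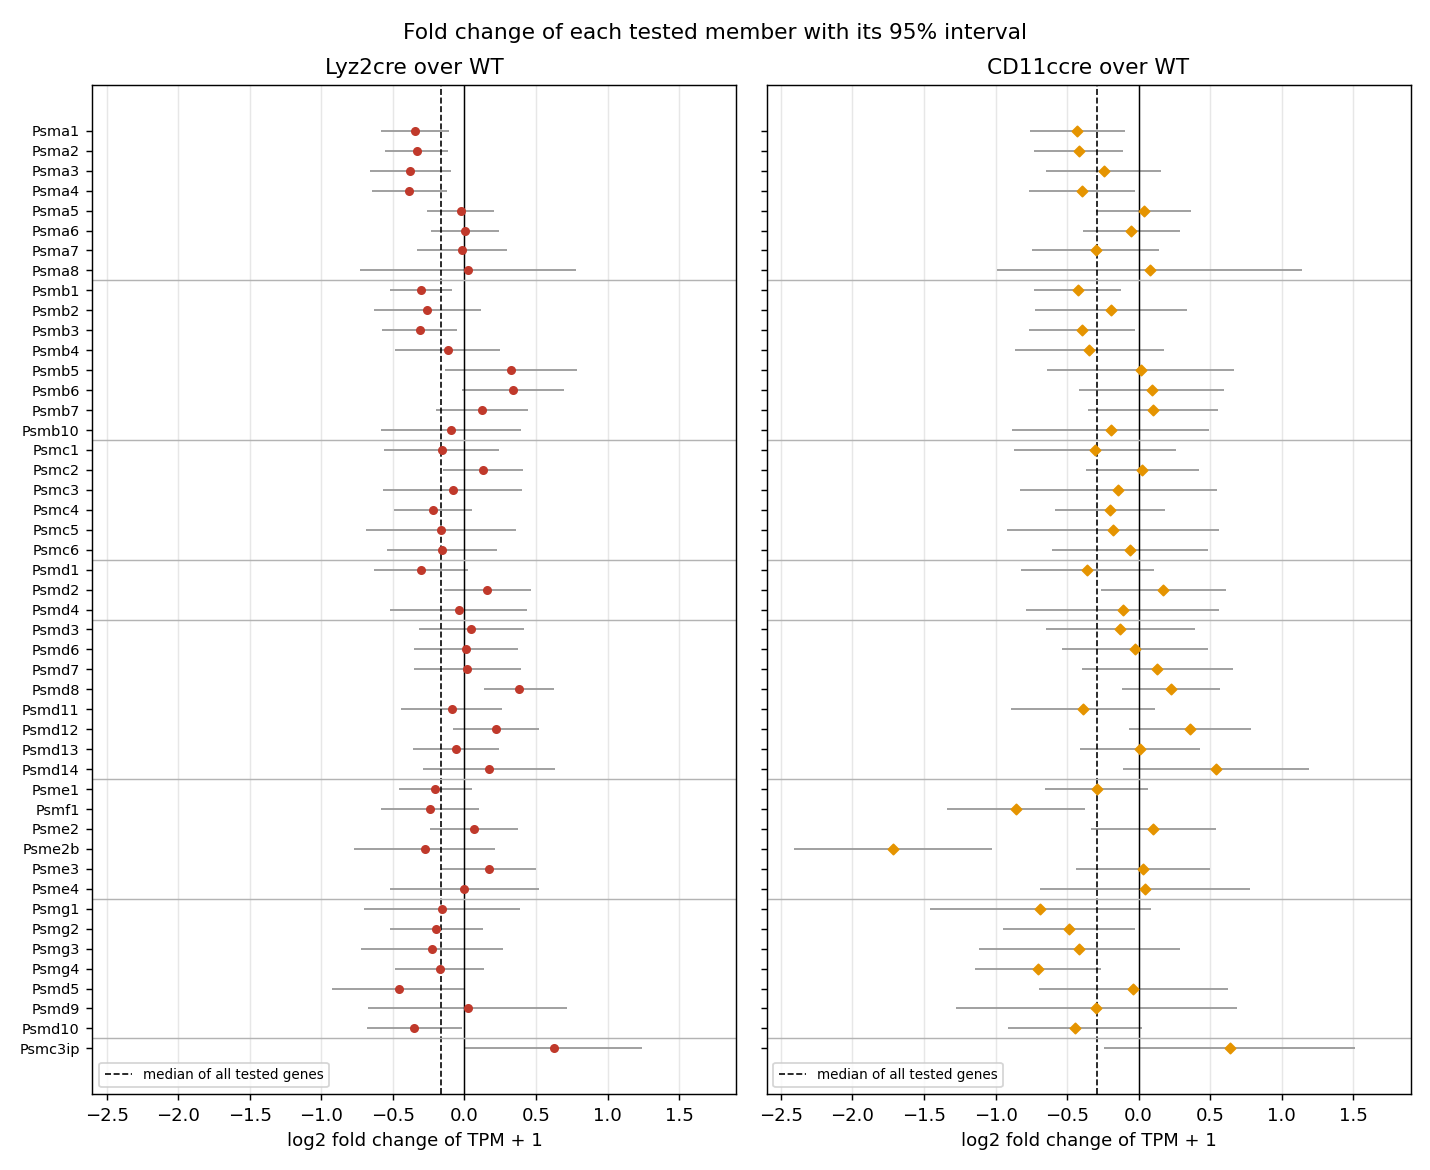
Log2 fold change of TPM + 1 over WT for the 47 tested members, Lyz2cre on the left and CD11ccre on the right, with bars for the 95% interval from the joint limma fit. The dashed line marks the median of all tested genes, -0.16 in Lyz2cre and -0.29 in CD11ccre. Psma1 to Psma4 lie left of that line in Lyz2cre, Psmd8, Psmb5 and Psmb6 lie right of 0, and Psme2b in CD11ccre lies farthest from 0.

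The promoters shown are those of every core and lid subunit whose Lyz2cre and WT libraries did not overlap and for which RefSeq gives a window, a set chosen after the values were seen. Each is the 250 bases before the RefSeq gene start, read 5′ to 3′ on the gene's own strand of GRCm38.p6. Capitals mark matches, on either strand, to TGACNNNGC, the antioxidant response core that NRF1 and NRF2 are known to bind, to CCAAT, the box bound by NF-Y, and to CCGGAAG, a core of sites for ETS factors. No pair of matches overlaps in these sequences. The first 5 belong to genes that were lower in Lyz2cre without overlap, and lie at chr7:114276117-114276366 (minus strand) for Psma1, chr13:14612992-14613241 (plus strand) for Psma2, chr12:70974373-70974622 (plus strand) for Psma3, chr9:54950609-54950858 (plus strand) for Psma4 and chr11:97703184-97703433 (plus strand) for Psmb3.
Psma1: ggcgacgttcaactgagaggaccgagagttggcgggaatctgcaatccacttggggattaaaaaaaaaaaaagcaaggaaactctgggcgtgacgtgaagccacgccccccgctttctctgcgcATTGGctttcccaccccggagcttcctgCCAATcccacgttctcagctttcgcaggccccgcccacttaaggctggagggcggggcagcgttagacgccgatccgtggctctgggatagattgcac
Psma2: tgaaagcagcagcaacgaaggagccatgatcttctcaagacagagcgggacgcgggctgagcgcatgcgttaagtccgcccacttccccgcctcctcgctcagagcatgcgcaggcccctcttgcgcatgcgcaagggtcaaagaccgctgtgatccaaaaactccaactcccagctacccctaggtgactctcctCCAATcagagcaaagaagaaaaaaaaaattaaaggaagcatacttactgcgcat
Psma3: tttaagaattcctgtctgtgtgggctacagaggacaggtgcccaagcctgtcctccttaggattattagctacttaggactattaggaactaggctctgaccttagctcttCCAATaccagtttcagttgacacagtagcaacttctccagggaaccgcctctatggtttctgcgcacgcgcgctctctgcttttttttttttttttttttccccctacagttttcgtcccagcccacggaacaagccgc
Psma4: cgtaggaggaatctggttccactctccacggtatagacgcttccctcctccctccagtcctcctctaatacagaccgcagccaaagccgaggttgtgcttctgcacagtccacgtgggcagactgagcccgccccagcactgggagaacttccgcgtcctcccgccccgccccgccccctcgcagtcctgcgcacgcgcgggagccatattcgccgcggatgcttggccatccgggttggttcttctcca
Psmb3: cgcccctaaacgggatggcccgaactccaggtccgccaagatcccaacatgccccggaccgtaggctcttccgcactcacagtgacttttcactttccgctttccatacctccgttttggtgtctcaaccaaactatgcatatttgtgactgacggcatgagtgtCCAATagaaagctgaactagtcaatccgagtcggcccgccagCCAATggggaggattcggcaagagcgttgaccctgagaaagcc
The next 3 belong to genes that were higher without overlap, and lie at chr14:54617996-54618245 (minus strand) for Psmb5, chr11:70525107-70525356 (plus strand) for Psmb6 and chr7:29180674-29180923 (minus strand) for Psmd8.
Psmb5: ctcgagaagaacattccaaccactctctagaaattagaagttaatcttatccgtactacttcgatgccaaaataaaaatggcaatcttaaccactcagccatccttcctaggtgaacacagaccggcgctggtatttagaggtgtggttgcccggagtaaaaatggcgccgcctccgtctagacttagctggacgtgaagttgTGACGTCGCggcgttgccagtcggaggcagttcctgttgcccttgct
Psmb6: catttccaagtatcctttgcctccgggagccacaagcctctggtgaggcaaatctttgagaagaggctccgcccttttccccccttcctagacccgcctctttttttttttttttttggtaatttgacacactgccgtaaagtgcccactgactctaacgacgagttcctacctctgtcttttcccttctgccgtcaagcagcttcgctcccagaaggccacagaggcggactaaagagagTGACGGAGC
Psmd8: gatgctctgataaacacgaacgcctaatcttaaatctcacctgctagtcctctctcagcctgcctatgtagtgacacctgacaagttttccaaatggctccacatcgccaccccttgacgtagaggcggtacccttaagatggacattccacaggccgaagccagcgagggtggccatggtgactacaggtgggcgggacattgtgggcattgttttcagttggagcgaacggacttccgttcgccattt
Psma1 and Psmb3 each hold 2 CCAAT boxes in these bases and Psma2 and Psma3 hold 1, while Psma4 and Psmd8 hold none of the motifs. Psmb5 and Psmb6 each hold 1 TGACNNNGC match, starting 47 and 9 bases before the gene start. Windows of 300 bases, 250 before and 50 after the start, were given for 40 of the 48 members. Of the 10 members that were lower without overlap, 9 had a window and 5 of these held CCAAT, which was absent from those of Psma4, Psmd1, Psmd5 and Psmf1. Of the 4 that were higher, 1 held CCAAT and 2 held TGACNNNGC. With so few genes no contrast between them is drawn. Of 43 such windows, 13.95% held TGACNNNGC, against 12.39% of all 32851 windows. CCAAT stood in 32.6% of the member windows and 37.4% of all windows. CCGGAAG stood in 37.2% of the member windows and 8.86% of all windows. Among genes with a window it was held by 1 of 7 core alpha and 0 of 6 core beta genes. In the 19S particle it was held by 3 of 5 ATPase, 2 of 3 other base and 4 of 6 lid genes. It was also held by 2 of 6 activators and inhibitors, 2 of 6 assembly factors and Psmc3ip, making 15 genes. A match is only a run of letters, and binding was not measured.

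Within the core, 4 of the 8 alpha genes were lower in Lyz2cre without overlap, as were 23.3% of all genes, and none passed the test. Psma1, at chromosome 7, had 204, 191 and 178 TPM in Lyz2cre, 179.97 TPM in CD11ccre and 239, 255 and 235 TPM in WT. Psma2 had 224, 235 and 208 TPM in Lyz2cre, 209 TPM in CD11ccre and 280.5, 279.7 and 280.7 TPM in WT. Psma4 had 175, 175 and 154 TPM in Lyz2cre, 167 TPM in CD11ccre and 205, 241 and 215 TPM in WT. In each of these 3, every library with floxed Siah1a and Siah2 was below every WT library with TPM as deposited. CD11ccre lay below the WT range for 50.5% of all genes. Psma3 had 184, 167 and 183 TPM in Lyz2cre, 195 TPM in CD11ccre and 254, 242 and 201 TPM in WT, again without overlap. With median-of-ratios scaling Psma3 overlapped between Lyz2cre and WT, and the other 3 did not. The place of CD11ccre with that scaling is not given for single genes. All 4 genes encode parts of the ring that gates the core.

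The log2 fold changes of these 4 in Lyz2cre were -0.35 ± 0.10 (SE) for Psma1, -0.33 ± 0.09 for Psma2, -0.38 ± 0.12 for Psma3 and -0.39 ± 0.11 for Psma4. Their adjusted p over all genes in limma ran from 0.0812 for Psma2 to 0.1105 for Psma3, so none passed. The widest interval was that of Psma3, from -0.66 to -0.09. Their sum was 760 ± 32.3 TPM in Lyz2cre, 751 TPM in CD11ccre and 976 ± 43.1 TPM in WT (SD, n = 3 for Lyz2cre and WT), or 77.8% of WT in Lyz2cre. These 4 were grouped because they were low, and over Psma1 to Psma7 the sum stood at 85.4% of WT and over the 14 constitutive core genes at 91.6%. With median-of-ratios scaling the log2 fold changes of the 4 shrank to between -0.20 and -0.15. Their scaled sum was then 789, 782 and 777 in Lyz2cre, 852 in CD11ccre and 865, 944 and 848 in WT, so that CD11ccre lay inside the WT range. In GENCODE M21 Psma2 overlaps AW209491 on the same strand, so their reads may be shared.

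With TPM as deposited the groups overlapped for the other alpha subunits. Psma5 had 121, 111 and 114 TPM in Lyz2cre, 120.1 TPM in CD11ccre and 122, 117 and 114 TPM in WT. Psma6, the most abundant of them, had 263, 248 and 237 TPM in Lyz2cre, 239 TPM in CD11ccre and 269.6, 236.7 and 239.9 TPM in WT. The log2 fold changes were -0.03 ± 0.10 and 0.00 ± 0.10 (SE) in Lyz2cre, and moved to 0.16 and 0.19 with median-of-ratios scaling. Psma5 and Psma6 were then higher in Lyz2cre without overlap. Psma7 had 185, 168 and 162 TPM in Lyz2cre, 141 TPM in CD11ccre and 194, 182 and 147 TPM in WT.

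The beta rings held members on both sides. Psmb6, the subunit with the caspase-like site, had 251, 330.4 and 248 TPM in Lyz2cre, 231 TPM in CD11ccre and 243, 219.9 and 190.3 TPM in WT. Psmb5, with the chymotrypsin-like site, had 244, 262 and 232 TPM in Lyz2cre, 198 TPM in CD11ccre and 229, 231 and 141 TPM in WT. In both genes the lowest Lyz2cre library was only just above the highest WT library, and CD11ccre lay inside the WT range. Psmb7, with the trypsin-like site, had 139, 152 and 125 TPM in Lyz2cre, 137 TPM in CD11ccre and 146, 127 and 111 TPM in WT, with overlap.

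The log2 fold changes in Lyz2cre were 0.34 ± 0.15 (SE) for Psmb6, with a limma adjusted p of 0.226, and 0.33 ± 0.20 for Psmb5, with an adjusted p of 0.354. For Psmb7 it was 0.12 ± 0.14. WT replicate 3 decided much of this, since the log2 fold change of Psmb5 was 0.09 and that of Psmb7 0.02 without it, and that of Psmb6 was 0.24. Without Lyz2cre replicate 2 that of Psmb6 was 0.20. Median-of-ratios scaling with all libraries gave 0.52 for Psmb6, 0.51 for Psmb5 and 0.31 for Psmb7. Each of them was then higher in Lyz2cre without overlap. The structural subunits Psmb1 and Psmb3 stood on the other side. Psmb1 had 230.5, 245 and 237 TPM in Lyz2cre, 219 TPM in CD11ccre and 281, 298 and 302 TPM in WT. Psmb3 had 204, 194 and 166 TPM in Lyz2cre, 177 TPM in CD11ccre and 234, 237 and 229 TPM in WT. CD11ccre lay below the WT range for 50.5% of all genes. In both Psmb1 and Psmb3, all libraries with floxed alleles lay below all WT libraries with TPM as deposited. Their log2 fold changes in Lyz2cre were -0.30 ± 0.09 and -0.31 ± 0.11 (SE), with limma adjusted p of 0.0948 and 0.138. With median-of-ratios scaling they shrank to -0.12 and -0.13, and Psmb1 then overlapped between Lyz2cre and WT while Psmb3 did not.

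The inducible catalytic subunits were also read. Psmb10 takes the place of Psmb7 in the immunoproteasome, the interferon-induced form of the core. It had 105, 131 and 92.2 TPM in Lyz2cre, 101 TPM in CD11ccre and 142, 124 and 87.4 TPM in WT. The groups overlapped, with a log2 fold change of -0.09 ± 0.21 (SE) and a 95% interval from -0.58 to 0.40 in Lyz2cre. The sign turned with median-of-ratios scaling, to 0.09. Within each library the ratio of Psmb10 to Psmb7 does not depend on scaling. It was 0.756, 0.856 and 0.737 in Lyz2cre, 0.738 in CD11ccre and 0.974, 0.975 and 0.788 in WT. The difference in means was -0.13 (exact two-sided permutation test, p = 0.2, where 3 against 3 libraries cannot go below 0.1).

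Psmb8 and Psmb9, outside the 48 genes, replace Psmb5 and Psmb6 in the same particle. Psmb9 had 50.1, 72.2 and 57.2 TPM in Lyz2cre, 45.6 TPM in CD11ccre and 65.9, 95.99 and 94.5 TPM in WT. Psmb8 had 122, 168 and 109 TPM in Lyz2cre, 130.2 TPM in CD11ccre and 136, 127 and 103 TPM in WT. In limma their adjusted p in Lyz2cre were 0.174 and 0.764. The ratio of Psmb9 to Psmb6, chosen after its values were seen, was 0.200, 0.219 and 0.230 in Lyz2cre, 0.197 in CD11ccre and 0.271, 0.437 and 0.497 in WT. It did not overlap between Lyz2cre and WT, and since it was chosen for its values no test is attached. The ratio of Psmb8 to Psmb5, chosen in the same way, was 0.5002, 0.6417 and 0.471 in Lyz2cre, 0.659 in CD11ccre and 0.592, 0.549 and 0.725 in WT, with overlap.

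**Figure D4:**
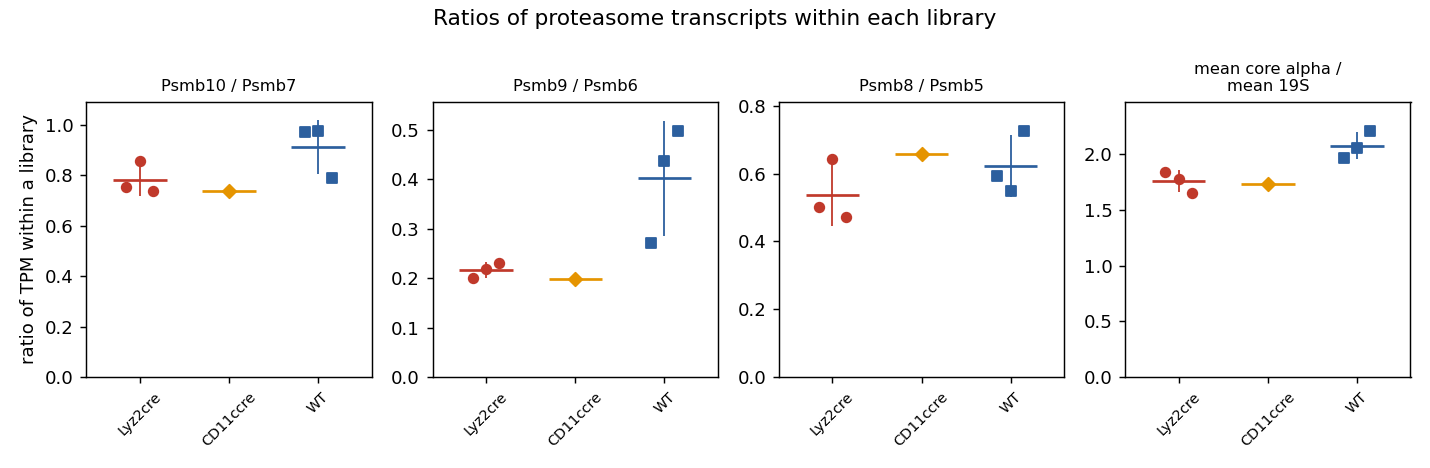
Ratios of TPM within each library for the 3 pairs of inducible over constitutive catalytic subunits and for the mean of Psma1 to Psma7 over the mean of the 17 subunits of the 19S particle. Points are libraries, horizontal lines the mean and vertical lines the SD (n = 3 for Lyz2cre and WT, 1 library for CD11ccre). Lyz2cre lies below WT without overlap for Psmb9 over Psmb6 and for the alpha over 19S ratio, and the other ratios overlap.

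In the 19S particle the sum of the 17 subunits was 1783, 1768 and 1815 TPM in Lyz2cre, 1757 TPM in CD11ccre and 1932, 1834 and 1575 TPM in WT. The mean of Lyz2cre was 100.5% of that of WT, and all 3 Lyz2cre libraries lay inside the WT range. Psmd8, a lid subunit, had 246, 258 and 284 TPM in Lyz2cre, 235 TPM in CD11ccre and 195.4, 195.1 and 213 TPM in WT. It was the most abundant 19S gene. With TPM as deposited CD11ccre lay above the WT range for 13% of all genes. For Psmd8 every library with floxed alleles was above every WT library. The log2 fold change in Lyz2cre was 0.38 ± 0.10 (SE), with a 95% interval from 0.14 to 0.62 and a limma adjusted p of 0.0723. For Psmd8 the limma adjusted p was 0.161 without the trend and 0.0951 with the replicate number as a block. It ran from 0.0791 to 0.213 with 1 library left out. The log2 fold change passed the threshold only in 2 settings. With median-of-ratios scaling it was 0.56, with an adjusted p of 0.0374. After rescaling without the most abundant genes it was 0.45, with an adjusted p of 0.0452. In CD11ccre it was 0.23 ± 0.15 with an adjusted p of 0.401.

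The other lid subunits overlapped between Lyz2cre and WT with TPM as deposited, and with median-of-ratios scaling Psmd12 was higher without overlap. Psmd14, the enzyme that cuts ubiquitin from substrates, had 93.1, 78.97 and 114 TPM in Lyz2cre, 122 TPM in CD11ccre and 107, 74.8 and 73.3 TPM in WT. Psmd12 had 64.0, 51.4 and 57.8 TPM in Lyz2cre, 63.5 TPM in CD11ccre and 47.1, 52.8 and 48.2 TPM in WT. Over the 8 lid genes, 6 had a log2 fold change above 0 in Lyz2cre and 2 below, and all 8 were above 0 with median-of-ratios scaling, but 4 were above 0 and 4 below without WT replicate 3. With TPM as deposited none was called, where 771 of 11397 genes were. Psmd8 was the only one of the 47 members called with median-of-ratios scaling (544 of 11382 genes). The same held with rescaling without abundant genes (774 of 10574 genes).

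The base carried the ATPases, of which 5 of 6 were below 0 in Lyz2cre, with 5 of 6 above 0 after median-of-ratios scaling. Psmc5, one of them, had 104, 101 and 95.8 TPM in Lyz2cre, 99.1 TPM in CD11ccre and 141, 130.1 and 76.9 TPM in WT. Psmc3 had 132, 136 and 120.5 TPM in Lyz2cre, 124 TPM in CD11ccre and 152, 173 and 97.9 TPM in WT. In both genes the Lyz2cre libraries lay close together between a low WT replicate 3 and a high WT pair. Psmd4, a ubiquitin receptor, showed the same order, with 136, 165 and 152 TPM in Lyz2cre, 143 TPM in CD11ccre and 175, 189 and 112 TPM in WT. WT replicate 3 stood at 0.567, 0.603 and 0.614 of the mean of the other WT libraries for Psmc5, Psmc3 and Psmd4. Psmd1, a scaffold of the base, was lower in Lyz2cre without overlap, with 67.1, 62.98 and 66.5 TPM in Lyz2cre, 63.0 TPM in CD11ccre and 86.1, 91.5 and 67.7 TPM in WT. Its limma adjusted p was 0.232, and with median-of-ratios scaling Lyz2cre and WT overlapped.

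The mean of Psma1 to Psma7 over the mean of the 17 subunits of the 19S particle, a ratio free of library scaling, was chosen after the values were seen. The alpha sum itself overlapped with median-of-ratios scaling, at 1362, 1322 and 1328 in Lyz2cre, 1422 in CD11ccre and 1384, 1443 and 1306 in WT over all 8 alpha genes. The ratio was 1.85, 1.78 and 1.65 in Lyz2cre, 1.73 in CD11ccre and 1.97, 2.06 and 2.21 in WT. All libraries with floxed alleles lay below all WT libraries, a description to which no test is attached. The same ratio for the constitutive beta subunits was 2.09, 2.35 and 1.91 in Lyz2cre, 1.91 in CD11ccre and 2.18, 2.13 and 2.24 in WT, with overlap.

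**Figure D5:**
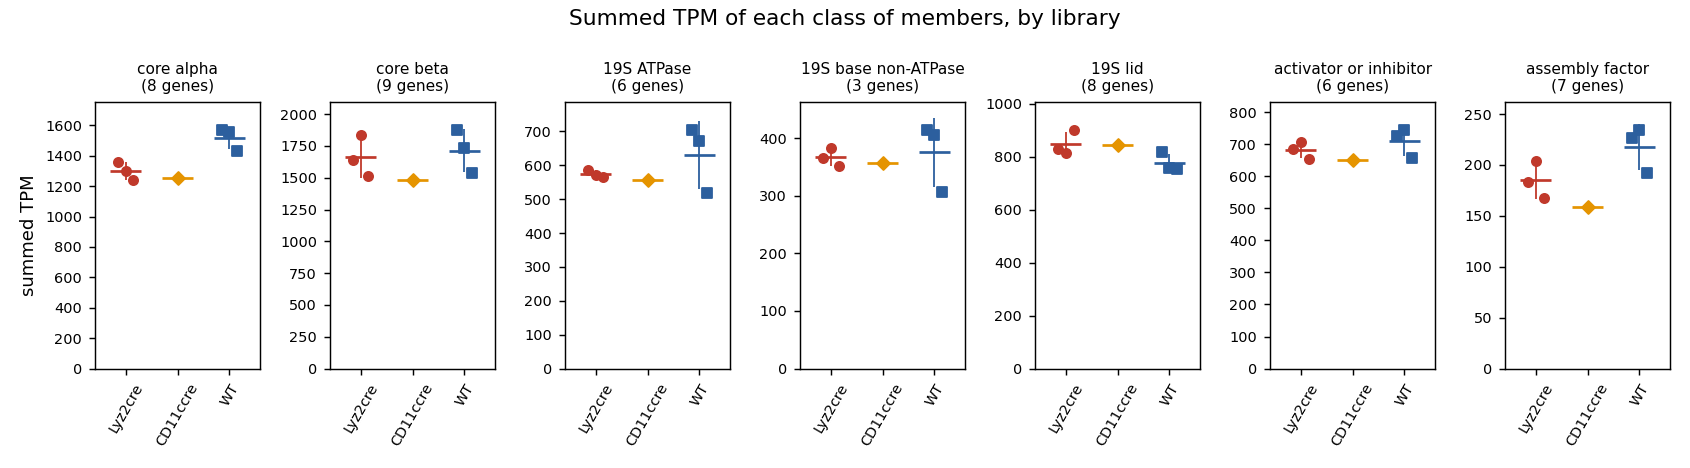
Summed TPM of the 7 classes of proteasome genes in each library, on axes that start at 0. Points are libraries, horizontal lines the mean and vertical lines the SD (n = 3 for Lyz2cre and WT, 1 library for CD11ccre). The core alpha sum is lower in every Lyz2cre and CD11ccre library than in every WT library, an order lost with median-of-ratios scaling, and the other sums overlap between Lyz2cre and WT.

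Among the activators, Psme1 and Psme2 form the interferon-inducible ring that opens the core. Psme1 had 244, 240.3 and 251 TPM in Lyz2cre, 230.2 TPM in CD11ccre and 306, 294 and 250.3 TPM in WT. Psme2 had 328, 359 and 287 TPM in Lyz2cre, 332 TPM in CD11ccre and 305, 351 and 277 TPM in WT. Both overlapped, with log2 fold changes of -0.20 ± 0.11 and 0.06 ± 0.13 (SE) in Lyz2cre. The sign for Psme2 turned to -0.02 without WT replicate 3. Psme3, which forms a nuclear activator ring, and Psme4, a large single-chain activator, also overlapped, with log2 fold changes of 0.17 ± 0.14 and 0.00 ± 0.22. With median-of-ratios scaling the log2 fold changes of Psme1 and Psme2 were -0.02 and 0.25, and Psme3 was higher in Lyz2cre without overlap.

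In CD11ccre 1 of 47 members fell, Psme2b, a gene closely related to Psme2, where 2.89% of all genes were called. Psme2b had 13.7, 17.5 and 22.5 TPM in Lyz2cre, 5.83 TPM in CD11ccre and 23.95, 18.4 and 22.5 TPM in WT. The single CD11ccre library was far below all others, while Lyz2cre and WT overlapped. The log2 fold change was -1.72 ± 0.30 (SE) in CD11ccre, with a limma adjusted p of 0.0329, and -0.28 ± 0.21 in Lyz2cre, with an adjusted p of 0.462. The lone library is assumed to vary like the others. The call ended without WT replicate 1, 2 or 3 (adjusted p = 0.0795, 0.0632 and 0.0645), without Lyz2cre replicate 2 (0.0659), with median-of-ratios scaling (0.0763), with no filter on low values (0.0584) and without the trend (0.0627). The longest transcripts of Psme2b and Psme2 matched at 789 of 794 aligned positions, and Psme2b overlaps Gm12185 and 9930111J21Rik1 on the same strand, so its level is uncertain. The sum of Psme2 and Psme2b was 342, 377 and 309.7 TPM in Lyz2cre, 338 TPM in CD11ccre and 329, 369.6 and 299 TPM in WT.

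Psmf1, an inhibitor of the core, had 20.7, 22.1 and 22.2 TPM in Lyz2cre, 13.7 TPM in CD11ccre and 23.9, 23.8 and 29.9 TPM in WT. CD11ccre was the lowest library, with a log2 fold change of -0.86 ± 0.21 (SE) and a limma adjusted p of 0.0716. In CD11ccre no member was higher at an unadjusted p under 0.05 (3.45% of all genes) and 9 were lower (19.1%, against 18.8% of all genes). CD11ccre lay above the WT range for 4 members (8.51%, against 13% of all genes) and below it for 20 (42.6%, against 50.5% of all genes). The median log2 fold change of the members in CD11ccre was -0.18, against -0.29 over all genes. Between CD11ccre and Lyz2cre no member was called (0.114% of all genes), with a smallest limma adjusted p of 0.488. At an unadjusted p under 0.05, 3 members, Psme2b, Psmf1 and Psmg4, were lower in CD11ccre than in Lyz2cre (6.38%, against 4.88% of all genes) and 0 were higher (1.22% of all genes). Both comparisons with WT share the 3 WT libraries.

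The assembly factors were expressed at lower TPM than most subunits. Their sum was 183, 203 and 168 TPM in Lyz2cre, 159 TPM in CD11ccre and 227, 234 and 192 TPM in WT. Psmg1 and Psmg2, which pair to start the alpha ring, had log2 fold changes of -0.16 ± 0.23 and -0.20 ± 0.14 (SE) in Lyz2cre. Psmg3 and Psmg4, the second chaperone pair of the core, had -0.23 ± 0.21 and -0.17 ± 0.13. All 4 overlapped between Lyz2cre and WT, and Psmg1 and Psmg4 turned to 0.02 and 0.00 with median-of-ratios scaling. Psmg4 had 25.5, 26.3 and 25.4 TPM in Lyz2cre, 17.5 TPM in CD11ccre and 25.96, 30.2 and 31.6 TPM in WT. In CD11ccre it was lowest, with a log2 fold change of -0.70 ± 0.19 (SE) and a limma adjusted p of 0.0893. Over the 7 assembly factors, all 7 were below 0 in CD11ccre and 6 of 7 in Lyz2cre, but 4 of 7 in Lyz2cre with median-of-ratios scaling. In CD11ccre they ran from -0.70 to -0.04, where the median over all genes was -0.29. None was called in either line.

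Psmd5, Psmd9 and Psmd10 are chaperones of the ATPase ring. Psmd5 had the lowest fold change of all members in Lyz2cre, with 19.5, 20.2 and 16.2 TPM in Lyz2cre, 25.2 TPM in CD11ccre and 24.6, 33.7 and 20.95 TPM in WT. Lyz2cre lay below WT without overlap, but only just, and CD11ccre lay inside the WT range. The log2 fold change in Lyz2cre was -0.46 ± 0.20 (SE), with a limma adjusted p of 0.208. With median-of-ratios scaling it was -0.28, and Lyz2cre and WT overlapped. Psmd10, also called gankyrin, had 44.8, 44.2 and 36.1 TPM in Lyz2cre, 38.8 TPM in CD11ccre and 59.5, 50.3 and 50.3 TPM in WT. All libraries with floxed alleles were below WT with TPM as deposited, and the limma adjusted p in Lyz2cre was 0.182. Lyz2cre stayed below WT without overlap with median-of-ratios scaling. Psmd9 had 38.7, 40.7 and 28.8 TPM in Lyz2cre, 28.5 TPM in CD11ccre and 44.2, 45.4 and 21.5 TPM in WT, with WT replicate 3 at 0.481 of the mean of the other WT libraries.

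Psmc3ip, the name match that is not a subunit, had the highest fold change of the 47 genes in Lyz2cre. It had 4.69, 2.66 and 4.28 TPM in Lyz2cre, 3.83 TPM in CD11ccre and 2.25, 2.18 and 1.91 TPM in WT. The levels were low and did not overlap. The log2 fold change was 0.62 ± 0.26 (SE), with a limma adjusted p of 0.2002.

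Beside the 48 genes, 33 other subunits and partners of the proteasome were listed, and 32 were found and tested. They comprised Psmb8 and Psmb9, subunits with other names, maturation factors, ubiquitin shuttles, the p97 system and the NRF1 axis. The list also held Usp14, Uchl5, Ube3c and Txnl1, which act on the proteasome, Zfand2a and Zfand5, the ubiquitin genes and Uba1. By limma, 0 of 32 were called in Lyz2cre and 0 in CD11ccre, with smallest adjusted p of 0.0803 and 0.0502. At an unadjusted p under 0.05, 6 were lower and 0 higher in each line, and 6 of 32 is 18.8%, the share that was lower among all genes being 18.7% in Lyz2cre and 18.8% in CD11ccre. Their median log2 fold change was -0.08 in Lyz2cre and -0.13 in CD11ccre, against -0.16 and -0.29 over all genes. Nfe2l1 had 70.2, 91.1 and 73.9 TPM in Lyz2cre, 56.2 TPM in CD11ccre and 70.5, 65.7 and 49.8 TPM in WT, a log2 fold change in Lyz2cre of 0.34 ± 0.17 (SE) with overlap. With median-of-ratios scaling it was 0.52, and Nfe2l1 was higher in Lyz2cre without overlap, as were 13.9% of all genes. Pomp, which brings the half-built core to maturity, had 247, 284 and 225 TPM in Lyz2cre, 237 TPM in CD11ccre and 255, 275 and 276 TPM in WT. It overlapped with either scaling, and its log2 fold change in Lyz2cre, -0.10 ± 0.12 (SE), turned to 0.09 with median-of-ratios scaling.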

How the data were processed

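Poly(A) RNA was made into strand-specific libraries and read from one end, per the labels' protocols. The authors deposited TPM per gene for 7 libraries. The tools, per the submitters' processing notes, were RSEM 1.3.1, STAR 2.7.0d and cutadapt 2.3, with mm10 as the genome build. Neither the annotation nor the strand setting is given in the sources used here. TPM keeps no depth, so precision was judged only from replicates. Members, classes and lists were chosen with earlier results of these data known. Genes named were those called, the 3 highest and 3 lowest in Lyz2cre, the catalytic, activator and assembly genes, and Pomp, Nfe2l1, Psmb8 and Psmb9. Others were named after their values were seen.

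Log2(TPM + 1) of the 11397 genes with a mean of at least 1 TPM was fitted with limma 3.58.1 in R 4.3.3, with a mean-variance trend, 1 coefficient per genotype and all 7 libraries (4 residual and 3.35 prior degrees of freedom). P-values are two-sided, with Benjamini-Hochberg adjustment over all tested genes and a threshold of 0.05. CD11ccre, a single library, was assumed to vary like the others. Fold changes on this scale understate those of low genes. The Psmb10 to Psmb7 ratio was compared with an exact permutation test (scipy 1.17.1). Gene overlaps came from GENCODE M21 and promoter sequences from RefSeq tables of GRCm38.p6. Transcripts were aligned with Biopython 1.88.

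Alternatives were pseudocounts of 0.1 and 5, no filter, a mean of at least 5 TPM, median-of-ratios scaling, rescaling over protein-coding genes without mitochondrial genes, Ftl1, Fth1, Chil3 and Lyz2, no trend, the replicate number as a block, and leaving out each library. Ratios other than Psmb10 to Psmb7, overlap counts without WT replicate 3 and scaled alpha sums were added after seeing the data.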

Additional observations from a re-analysis of the deposited data

How the results depend on the processing

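With 3 WT, 3 Lyz2cre and 1 CD11ccre library and no depth, small differences could not be resolved. The count of members called in Lyz2cre was 0, where 771 of 11397 genes were called. It was 1 with median-of-ratios scaling (544 of 11382 genes) and with rescaling without abundant genes (774 of 10574 genes), Psmd8 in both. Leaving out 1 library gave 0 to 0. The count in CD11ccre was 1, and 0 with no filter, with median-of-ratios scaling and without the trend; leaving out 1 library gave 0 to 1. The labels do not say whether the replicate numbers pair the samples. Deviations of same-numbered libraries correlated at -0.015, 0.043 and 0.066, and those of differently numbered libraries at -0.098 to 0.06. With 3 libraries per group these values cannot decide it. A block for the replicate number also takes up residual degrees of freedom. With the replicate number as a block, 0 members were called in Lyz2cre and 0 in CD11ccre, where Psme2b had an adjusted p of 0.116, and 390 and 21 of all genes were called, against 771 and 329.

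The summed proteasome TPM of Lyz2cre was 94.6% of WT, 107.5% with median-of-ratios scaling, 99.5% after rescaling, and 90.5% to 97.8% with 1 library left out. The Psmb10 to Psmb7 difference ran from -0.19 to -0.10, that of Psmb9 to Psmb6 from -0.25 to -0.14 and that of the alpha to 19S ratio from -0.37 to -0.25. Over 27 single-gene results and 401 refits, 11 turned sign. With median-of-ratios scaling these were Psmb10 (0.0904), Psmg1 (0.017), Psmg4 (0.0043) and Pomp (0.0868). With 1 library left out, Psmb10 ran from -0.2913 to 0.0541, turning without WT replicate 1 and without Lyz2cre replicate 3, and Psmg1 from -0.3252 to 0.0364, turning without Lyz2cre replicate 1. Psme2 ran from -0.0154 to 0.1559 and Psmb8 from -0.0659 to 0.2434, both turning without WT replicate 3 and without Lyz2cre replicate 2. The cause was not tested.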
